A study of Mus musculus with 12 samples.

Results

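The Krüppel-like factor (KLF) genes of fat were examined here as Klf2, Klf3, Klf4, Klf5, Klf6, Klf7, Klf9, Klf11, Klf13 and Klf15, 10 genes chosen by name. Members were all accessible regions (peaks) that the deposited ATAC-seq tables assign to one of these symbols. They numbered 87 of 58558 peaks in brown fat and 59 of 39558 in inguinal fat. ATAC-seq counts DNA cut by a transposase in open chromatin, and the deposited values are read counts per peak divided by a size factor of each sample, called normalized reads below. The knockout removes BAF60a (gene Smarcd1), a subunit of the SWI/SNF chromatin-remodelling complexes.

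Brown fat (BAT) was taken from 3 mice homozygous for floxed BAF60a (flox/flox, called flox) and from 3 AKO mice, in which the Adiponectin-Cre transgene also deletes the gene in adipocytes. All were of the C57BL/6 strain. Their age and housing temperature are not given beside these samples. Inguinal white fat (iWAT) came from flox and AKO mice of 6 to 8 months kept at 10 °C for 7 days, and tissue of 6 mice per genotype was pooled, minced and split into 3 aliquots. The inguinal samples are therefore aliquots of 1 pool per genotype, and their p-values cover the spread between aliquots, not between mice. Whole tissue was used, so nuclei of vessels, immune cells and progenitors, in which this Cre is not active, were read as well. In such bulk samples, fewer nuclei of a type and less open chromatin per nucleus cannot be told apart.

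KLF proteins bind CACCC- and GC-rich DNA through 3 zinc fingers at the carboxyl end, while their other parts recruit activators or repressors. In fat, several act in a relay with C/EBP proteins and PPARγ during differentiation: Klf4, Klf5, Klf6, Klf9, Klf13 and Klf15 are known to promote it, and Klf2, Klf3 and Klf7 to hold it back. Klf2, Klf4 and Klf6 are also well known in endothelial cells and macrophages.

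Reads in peaks ranged from 6336670 to 27500738 per sample in brown fat and from 4066720 to 6691161 in iWAT. In brown fat the first principal component (PC1) took 55.6% of the variance and set flox replicate 1 (score -98.2) against AKO replicate 2 (score 112), the deepest and the shallowest library. The other scores were -41.8 and 14.6 in flox and -0.617 and 13.5 in AKO. PC1 thus ran partly with genotype in brown fat as well, with overlap, and as a covariate it can take up part of a genotype difference. As in the study's design, its score was a covariate in brown fat, and limma values without it stand beside those of the brown fat KLF peaks described. In iWAT PC1 itself separated the genotypes (scores -41.4 to -30.9 in flox and 29.4 to 37.8 in AKO) and was not used. The brown fat peak of Smarcd1 at chr15:99704113-99704521 held 136, 201 and 185 normalized reads in flox and 23.7, 57.9 and 26.9 in AKO. The Smarcd1 start-site peak overlapped between the genotypes, at 369 to 485 normalized reads in flox and 412 to 497 in AKO. In iWAT the start-site peak was the only Smarcd1 peak, with 248.8, 187.9 and 211 normalized reads in flox and 233, 229 and 230 in AKO, also with overlap. Since this peak was not lower in AKO brown fat either, the iWAT values cannot tell whether the gene was deleted. From expression, the paper reports efficient deletion of BAF60a in adipocytes of iWAT. The 2 tables were normalized separately, so levels are compared within a tissue only. Coordinates are those of mm10, both ends included, and distances run from the start site of the principal GENCODE transcript to the middle of a peak.

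No KLF peak passed the threshold in either tissue. With limma at an adjusted p under 0.1, 0 of 87 brown fat peaks were lower and 0 higher in AKO, as were 0% and 0% of all peaks. In iWAT 0 of 59 were lower and 0 higher, again against 0% and 0% of all peaks. The smallest adjusted p of a KLF peak was 0.489 in brown fat (limma) and 0.157 in iWAT (limma). At an unadjusted p under 0.05, brown fat had 2 lower and 2 higher KLF peaks, where 5.59% of all peaks were lower and 3.46% higher. iWAT had 6 lower and 2 higher, against 7.42% and 7.61%. The median standard error of a KLF log2 fold change was 0.24 in brown fat and 0.17 in iWAT, which bounds what these samples could show at a single peak.

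Count models on the recovered reads called a few. In brown fat with PC1, DESeq2 called 0 lower and 0 higher KLF peaks (0.298% and 0.11% of all peaks with an adjusted p), and edgeR 0 and 0 (0.114% and 0.029%). Without PC1, a setting added after the values were seen, DESeq2 called 1 lower peak at Klf9 and 1 higher peak at Klf13, where 0.517% and 0.512% of all peaks were called. In iWAT DESeq2 called 1 lower peak, at Klf6, and 0 higher (0.63% and 0.546% of all). edgeR called 2 lower there, at Klf6 and Klf9, and 2 higher, at Klf5 and Klf13 (2.52% and 2.15% of all).

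The KLF loci differed widely in how many peaks they held. Klf4 had 25 in brown fat and 21 in iWAT, most of them in the gene-poor stretch upstream, as far as -595750 bp from its start site. Klf5 had 1 in each tissue, over its start site. Of the 87 brown fat peaks, 9 held a principal start site, 56 lay upstream of the gene, 15 downstream and 7 within it. Of the 59 iWAT peaks, 10 held a start site, 34 lay upstream, 12 downstream and 3 within. A peak far from a gene is assigned to it by position, which is no measurement of contact or control. Peaks of the 2 tissues largely coincided: 52 brown fat KLF peaks, or 59.8%, overlapped one in iWAT, and these were 88.1% of the iWAT ones.

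**Figure D1:**
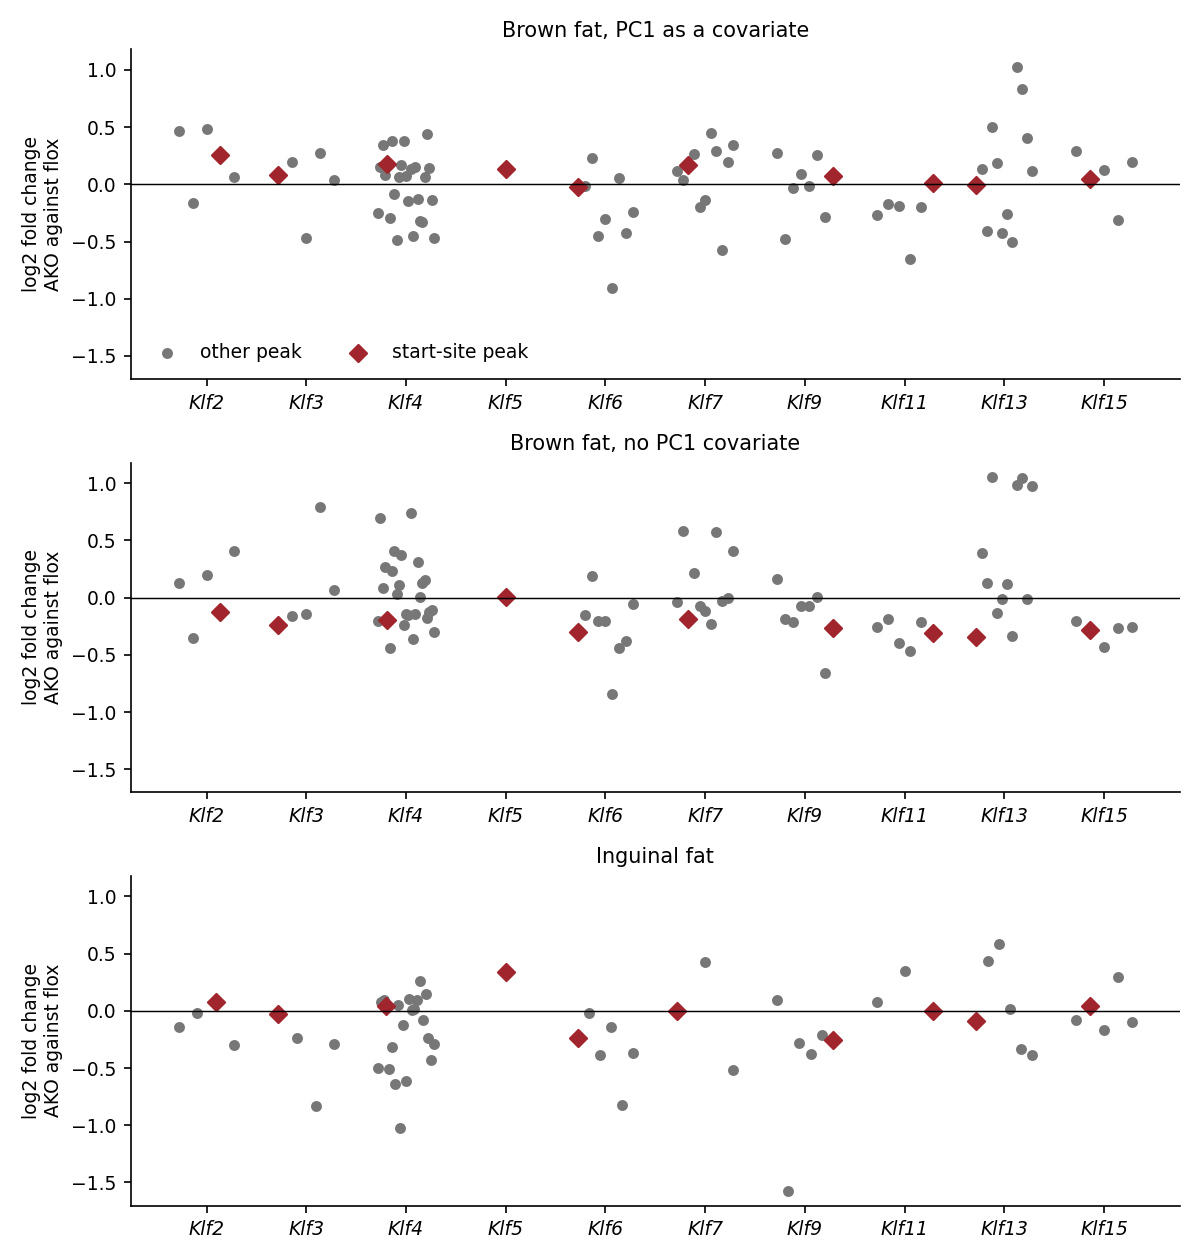
Log2 fold change (AKO against flox, limma) of each KLF peak, by gene, in brown fat with and without the PC1 covariate and in inguinal fat; diamonds mark the peak over or nearest the start site. The diamonds lie near 0 with the covariate, all but that of Klf5 lie below 0 without it, and the 6 inguinal Klf6 peaks are all below 0.

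As a list the KLF peaks stayed near 0. In brown fat their median log2 fold change was 0.06, beside 0.0067 over all peaks, and 38 of 87 were negative (43.7%, against 49.1% of all). Without PC1 the median was -0.11, beside -0.014 over all peaks, and 54 were negative (62.1%, against 51.7% of all), so the direction of the list turned with that choice. In that fit 2 KLF peaks were lower and 7 higher at an unadjusted p under 0.05, against 4.37% and 7.57% of all peaks. With PC1 but without flox replicate 1 or without AKO replicate 2, the median was 0.055 in either case. At that p, 1 KLF peak was lower and 2 higher without flox replicate 1, where 4779 of all 58558 peaks passed. Without AKO replicate 2, 4 KLF peaks were lower and 3 higher, where 5703 of all 58558 peaks passed. These counts of all peaks cover both directions. In iWAT the median was -0.10, beside -0.00089 over all peaks, and 37 of 59 were negative (62.7%, against 50.1% of all). Adding PC1 there, which runs with genotype, turned the median to 0.64. In brown fat 5 KLF peaks were lower in every AKO sample than in any flox sample and 3 were higher, where 8.84% and 8.77% of all peaks behaved so. In iWAT this held for 10 lower and 3 higher KLF peaks, against 10.3% and 10.6% of all. The brown fat counts and the higher iWAT count lie below those shares, and the lower iWAT count, at 16.9% of the KLF peaks, lies above its share.

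Most of these promoters hold the letters of the box that KLF and SP proteins bind. In the 250 bases before the RefSeq start site (GRCm38.p6, 9 of the 10 genes matched), the letters CCNCNCCC, a box shared by KLF and SP proteins, occurred on either strand in 8 of 9 KLF promoters and in 45.9% of all 32851 promoters. Matches that overlap were counted separately. The 9 KLF promoters were 59.2% to 78.4% G and C, and the part of this in the matches was not tested. Klf3 had 10 matches, Klf4 had 9, Klf7 had 8, Klf11 and Klf13 had 5 each, Klf2 had 4, Klf15 had 3, Klf6 had 2, and Klf9 had 0. None of the 9 held the nuclear receptor half-site AGGTCA (14.02% of all) or the C/EBP core TTGCNNAA (9.56%). The promoters of Klf4 (chr4:55532476-55532725, minus strand) and Klf9 (chr19:23140976-23141225, plus strand) are printed because they stand at opposite ends of that count among those drawn from before the transcribed region, with the CCNCNCCC matches in capitals.
Klf4: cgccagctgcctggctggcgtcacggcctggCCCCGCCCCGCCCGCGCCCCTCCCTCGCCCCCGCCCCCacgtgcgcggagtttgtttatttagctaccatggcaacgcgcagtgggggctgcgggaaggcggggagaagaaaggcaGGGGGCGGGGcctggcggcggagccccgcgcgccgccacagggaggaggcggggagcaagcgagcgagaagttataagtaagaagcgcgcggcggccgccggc
Klf9: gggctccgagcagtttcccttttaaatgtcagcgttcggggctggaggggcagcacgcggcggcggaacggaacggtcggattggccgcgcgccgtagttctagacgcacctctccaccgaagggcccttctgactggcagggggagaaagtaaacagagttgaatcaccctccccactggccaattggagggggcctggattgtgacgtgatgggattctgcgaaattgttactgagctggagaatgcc
Both promoters lie in a start-site peak in each tissue, described below.

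Across the central 200 bases of the peaks, the box was not more frequent at KLF loci. It occurred in 21 of 87 KLF windows in brown fat, or 24.1%, and in 27.1% of all windows. In iWAT it occurred in 21 of 59, or 35.6%, and in 35.1% of all.

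Over the start sites, read density in flox ran from low to high. Values are normalized reads per kb of peak, as the mean of 3 flox samples ± SD. The order therefore also depends on the called width, which ran from 751 bp (Klf2) to 2691 bp (Klf13) in brown fat. Per whole brown fat peak, Klf9 (flox mean 1311) lay above Klf2 (731). In brown fat Klf5 (416 ± 62), Klf9 (549 ± 92) and Klf4 (597 ± 127) were the lowest. Klf9 and Klf4 differed by less than their SDs, and Klf5 lay below them by more. Klf7 is left out here, since its peak stops short of the principal start site. Klf6 (736 ± 76) and Klf15 (765 ± 155) followed, and Klf11 (925 ± 183), Klf13 (938 ± 144), Klf2 (973 ± 86) and Klf3 (988 ± 108) were the highest and could not be ordered among themselves. In iWAT Klf5 (224 ± 32) and Klf15 (254 ± 23) stood lowest, then Klf4 (316 ± 19) and Klf9 (340 ± 25). Klf6 (419 ± 42), Klf7 (447 ± 21) and Klf11 (450 ± 28) lay together, below Klf13 (542 ± 7), Klf2 (600 ± 32) and Klf3 (908 ± 44). Klf3 stood apart at the top in iWAT, above Klf2 by several SDs.

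In brown fat the extremes over the start sites mostly came from the same pair of libraries. Flox replicate 1 was the highest sample at 8 of 9 KLF start-site peaks and AKO replicate 2 the lowest at 8 of 9. Over all 11582 peaks at a start site, the same samples were highest at 49.4% and lowest at 51.0%. With PC1 in the fit, the 11 KLF peaks over any annotated start had a median log2 fold change of 0.08, with 2 negative, beside 0.11 over all such peaks, 26.7% of them negative. Without PC1 it was -0.26 with 10 negative, beside -0.063 and 60.3%. In iWAT the 10 start-site peaks had a median of -0.0022, and all start-site peaks -0.0024. The part of library depth in these values was not tested.

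**Figure D2:**
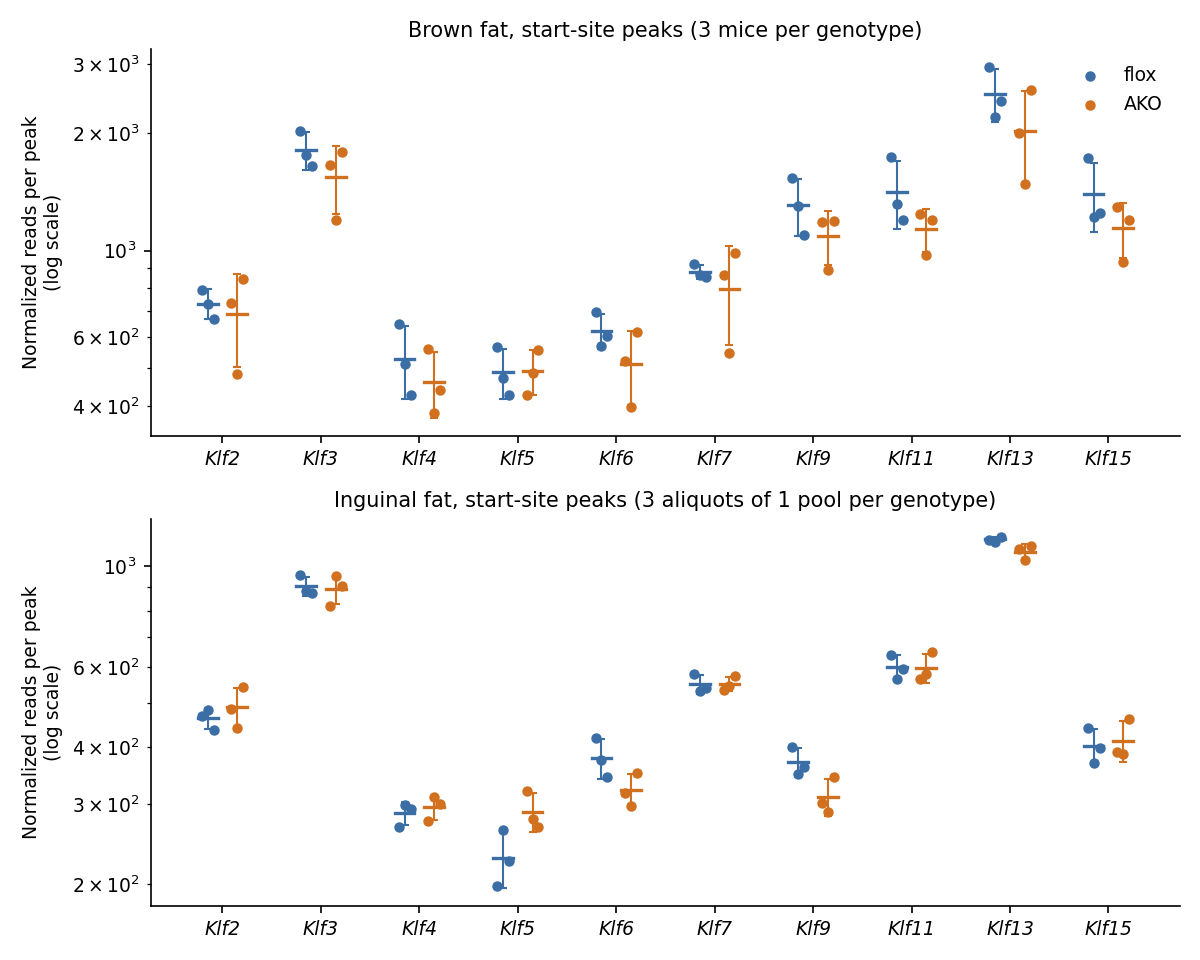
Normalized reads of each sample (log axis) at the peak over or nearest the start site of each KLF gene, in brown fat (top) and inguinal fat (bottom), with the mean and SD of 3 samples per genotype. In brown fat AKO replicate 2, the middle orange point, is the lowest of the 6 samples at 9 of 10 genes; in inguinal fat AKO lies above flox without overlap at Klf5 and below it at Klf9 and Klf13.

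Among the genes that promote fat cell formation, Klf4 acts early and turns on Cebpb. Its start-site peak (chr4:55532239-55533124) held 649, 511 and 427 normalized reads in flox and 559, 384 and 440.4 in AKO, and the genotypes overlapped. The log2 fold change was 0.18 ± 0.19 (SE) with limma (adjusted p = 0.806), and -0.19 without PC1. In iWAT the start-site peak (chr4:55532234-55533138) held 267, 299 and 293 normalized reads in flox and 275, 311 and 300.5 in AKO, a difference of 0.05 ± 0.13 (SE) (limma, adjusted p = 0.9003).

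Of its distal peaks, the one with the smallest p in brown fat (chr4:55959951-55960564) held 298, 228 and 216 normalized reads in flox and 302, 131 and 254 in AKO. Its log2 fold change was 0.44 ± 0.23 (SE) with limma (adjusted p = 0.614) but -0.18 without PC1, it ran from 0.26 without AKO replicate 1 to 0.81 without flox replicate 3, and AKO replicate 2 was the lowest sample. In iWAT the smallest p belonged to chr4:55563157-55563439, 30832 bp upstream and overlapping the non-coding gene Gm12511, with 52.04, 48.9 and 47.3 normalized reads in flox and 35.7, 27.4 and 41.7 in AKO. All AKO aliquots lay below all flox ones there (limma, -0.51 ± 0.18 (SE), adjusted p = 0.249). The brown fat peak over the same place (chr4:55562160-55563449) held 405, 329.6 and 281 normalized reads in flox and 278, 261 and 207 in AKO, also lower without overlap (limma, -0.29 ± 0.25 (SE); -0.44 without PC1). It was 1 of 52 coinciding KLF pairs at which the genotypes separated in the same direction in both tissues, or 1.92%, where 2.25% of all coinciding peaks did. Over the whole Klf4 locus, 11 of 25 brown fat peaks (12 without PC1) and 11 of 21 iWAT peaks were negative. Of all peaks 49.1% (51.7% without PC1) and 50.1% were.

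Klf5 follows C/EBPβ in the relay and turns on Pparg. Its single brown fat peak (chr14:99298288-99299460) held 567, 472 and 426 normalized reads in flox and 428, 487 and 557 in AKO, which overlapped (limma, 0.13 ± 0.22 (SE), adjusted p = 0.879; 0.0085 without PC1). In iWAT the peak (chr14:99298374-99299396) held 198, 263 and 226 normalized reads in flox and 322, 279 and 267 in AKO. Every AKO aliquot was above every flox one, though AKO replicate 3 exceeded flox replicate 2 by little. The log2 fold change was 0.34 ± 0.16 (SE) with limma (adjusted p = 0.367), and edgeR alone called it (adjusted p = 0.0847, with a range of 0.0847 to 0.9999 over all settings and tools).

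Klf6 represses Dlk1, a brake on differentiation. Its start-site peak in brown fat (chr13:5860850-5861695) held 694, 571 and 603 normalized reads in flox and 523, 398 and 619 in AKO (limma, -0.02 ± 0.21 (SE), adjusted p = 0.984; -0.30 without PC1). In iWAT (chr13:5860733-5861639) it held 421, 375 and 344 normalized reads in flox and 318, 297 and 352 in AKO (limma, -0.24 ± 0.14 (SE), adjusted p = 0.482). Flox and AKO overlapped in both tissues. Most peaks of the locus were negative: 7 of 9 brown fat peaks (8 without PC1) and 6 of 6 iWAT peaks were negative, with medians of -0.24 and -0.30. Of all peaks 49.1% were negative in brown fat (51.7% without PC1) and 50.1% in iWAT.

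The smallest adjusted p of any KLF peak in iWAT lay 198370 bp downstream of the Klf6 start site, at chr13:6059535-6060169. It held 97.7, 66.7 and 78.3 normalized reads in flox and 48.4, 37.7 and 49.2 in AKO, so that every AKO aliquot was below every flox one. The log2 fold change was -0.82 ± 0.19 (SE) with limma (adjusted p = 0.157) and -0.85 with DESeq2 (adjusted p = 0.0971) and with edgeR (adjusted p = 0.0239). The adjusted p ranged over 0.0239 to 0.9999 among all settings and tools, and limma called the peak when peaks under a mean of 50 normalized reads were left out (adjusted p = 0.088). That fit called 134 lower and 180 higher of all 25776 peaks tested, where the main fit called 0 and 0. In brown fat the coinciding peak (chr13:6059485-6060173) held 240.4, 159 and 213 normalized reads in flox and 188, 90.8 and 190.0 in AKO, with overlap (limma, 0.06 ± 0.31 (SE), and -0.44 without PC1). A second brown fat peak in this downstream region, chr13:6046677-6046878, held 51.7, 34.7 and 78.9 normalized reads in flox and 35.1, 25.1 and 26.9 in AKO and had the smallest p of the Klf6 locus there (limma, -0.91 ± 0.40 (SE), adjusted p = 0.561; -0.84 without PC1). That value rested on flox replicate 3, without which it was -0.079. The central 200 bases of the iWAT peak (chr13:6059753-6059952, plus strand) are printed as the KLF region with the smallest p in that tissue. They hold none of CCNCNCCC, AGGTCA, TTGCNNAA or CCCNNGGG, the core bound by EBF proteins, and so have no capitals.
Klf6 iWAT window: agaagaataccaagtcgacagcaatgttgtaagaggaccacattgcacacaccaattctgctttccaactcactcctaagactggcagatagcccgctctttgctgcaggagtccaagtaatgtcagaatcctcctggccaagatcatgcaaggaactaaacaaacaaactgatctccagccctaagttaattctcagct

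Klf9, which turns on Pparg late in differentiation, has a second large peak 5781 bp before its start site. The start-site peak in brown fat (chr19:23140620-23143009) held 1534, 1304 and 1096 normalized reads in flox and 1184, 894 and 1193 in AKO (limma, 0.07 ± 0.17 (SE), adjusted p = 0.9200; -0.26 without PC1). In iWAT (chr19:23140653-23141743) it held 401, 349 and 362 normalized reads in flox and 302, 289 and 344 in AKO, lower without overlap but not past the threshold (limma, -0.25 ± 0.14 (SE), adjusted p = 0.434).

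The upstream brown fat peak (chr19:23134007-23136884), overlapping the non-coding gene 2410080I02Rik, held 2561, 2003 and 1811 normalized reads in flox and 1532, 1072 and 1436 in AKO. At 738 ± 135 normalized reads per kb in flox it was denser than the start-site peak, and all 3 AKO mice lay below all 3 flox mice. The difference depended on PC1: the log2 fold change was -0.29 ± 0.17 (SE) with it (limma, adjusted p = 0.658) and -0.66 without it. DESeq2 without PC1 called the peak (-0.66 ± 0.19, adjusted p = 0.0737), and its adjusted p ranged over 0.0737 to 0.829 among all settings and tools. The coinciding iWAT peak (chr19:23134009-23136316) held 706, 491 and 647 normalized reads in flox and 485, 555 and 534 in AKO, with overlap (limma, -0.21 ± 0.17 (SE)). The brown fat peak with the smallest p at Klf9 was another, chr19:23028294-23028627, with 52.3, 68.7 and 71.1 normalized reads in flox and 55.7, 65.7 and 47.01 in AKO (limma, -0.48 ± 0.20 (SE), adjusted p = 0.548; -0.19 without PC1).

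A small iWAT peak 96206 bp upstream of Klf9 (chr19:23044877-23045164, within C330002G04Rik) showed the most negative log2 fold change of all KLF peaks in that tissue. It held 40.6, 27.8 and 26.7 normalized reads in flox and 4.61, 18.3 and 10.7 in AKO, and no brown fat KLF peak coincided with it. limma gave -1.57 ± 0.42 (SE) (adjusted p = 0.186) and edgeR -1.51 (adjusted p = 0.0282), while DESeq2 gave no adjusted p at such a low count. Over all settings and tools the adjusted p ranged over 0.0282 to 0.9999. AKO replicate 1 was the lowest sample, and without it the limma value was -1.10. The central windows of the 2 Klf9 regions follow, at chr19:23135346-23135545 (brown fat) and chr19:23044921-23045120 (iWAT), plus strand, because the first was lower in all AKO mice and the second in all AKO aliquots. Capitals mark CCNCNCCC, with 4 matches in the first, some overlapping, and 1 in the second, and TTGCNNAA, with 1 match in the second.
Klf9 brown fat window: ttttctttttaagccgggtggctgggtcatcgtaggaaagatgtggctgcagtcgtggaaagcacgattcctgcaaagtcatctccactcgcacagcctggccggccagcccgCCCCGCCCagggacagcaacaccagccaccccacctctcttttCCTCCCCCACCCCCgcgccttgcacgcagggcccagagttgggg
Klf9 iWAT window: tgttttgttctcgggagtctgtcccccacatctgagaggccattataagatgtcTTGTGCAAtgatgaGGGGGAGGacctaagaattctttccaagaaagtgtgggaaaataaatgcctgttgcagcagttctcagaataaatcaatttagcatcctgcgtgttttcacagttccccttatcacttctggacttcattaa
The C/EBP core TTGCNNAA occurred in 10.2% of all iWAT windows and the box in 27.1% of brown fat windows.

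Klf13, a further promoter of differentiation, held the highest KLF log2 fold changes of brown fat. Its start-site peak in brown fat (chr7:63937269-63939959) held 2957, 2204 and 2412 normalized reads in flox and 2004, 1483 and 2575 in AKO (limma, -0.00 ± 0.24 (SE), adjusted p = 0.999; -0.35 without PC1). In iWAT (chr7:63937564-63939679) it held 1145, 1134 and 1163 normalized reads in flox and 1092, 1031 and 1109.9 in AKO, a small difference without overlap (limma, -0.09 ± 0.12 (SE), adjusted p = 0.762).

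A pair of neighbouring upstream peaks had higher values in AKO brown fat, neither past the threshold with limma. The nearer (chr7:63999643-63999867, 60840 bp upstream) held 46.5, 31.8 and 36.2 normalized reads in flox and 93.8, 84.98 and 53.7 in AKO (limma, 1.03 ± 0.33 (SE), adjusted p = 0.489). The farther (chr7:64001624-64001987, 62890 bp upstream and overlapping Gm32633) held 61.7, 77.6 and 59.5 normalized reads in flox and 101, 172 and 147 in AKO (limma, 0.83 ± 0.28 (SE), adjusted p = 0.4996). Every AKO mouse exceeded every flox mouse at both, and the limma values without PC1 were 0.98 and 1.04. DESeq2 without PC1 called the farther one (1.06 ± 0.29, adjusted p = 0.0504), whose adjusted p ranged over 0.0504 to 0.781 among all settings and tools. Without flox replicate 3 its limma value was 0.39. In iWAT the coinciding peaks held 39.9, 51.1 and 30.99 normalized reads in flox and 41.5, 35.4 and 44.9 in AKO for the nearer (limma, 0.02 ± 0.20 (SE)) and 65.6, 84.5 and 89.5 normalized reads in flox and 73.8, 58.2 and 56.7 in AKO for the farther (limma, -0.34 ± 0.18 (SE)), with overlap at both. Of the 12 brown fat peaks of Klf13, 3 were higher without overlap. The third (chr7:63968415-63968614) held 12.5, 11.8 and 25.9 normalized reads in flox and 29.9, 42.5 and 29.7 in AKO (limma, 0.50 ± 0.27 (SE), adjusted p = 0.624; 1.05 without PC1). The central window of the farther peak of the pair (chr7:64001706-64001905, plus strand) is printed as the KLF region called higher in brown fat, and its capitals mark a single TTGCNNAA, a core found in 11.0% of all brown fat windows.
Klf13 brown fat window: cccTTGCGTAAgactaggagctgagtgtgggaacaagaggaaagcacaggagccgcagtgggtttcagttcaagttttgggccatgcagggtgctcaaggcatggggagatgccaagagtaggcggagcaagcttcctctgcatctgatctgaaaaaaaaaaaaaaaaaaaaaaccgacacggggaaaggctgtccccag

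In iWAT the Klf13 peak called by edgeR was another, 48034 bp upstream (chr7:63986763-63987135). It held 101, 110.1 and 92.96 normalized reads in flox and 122, 213 and 135 in AKO, with AKO replicate 2 far above the other aliquots. limma gave 0.58 ± 0.22 (SE) (adjusted p = 0.286), edgeR 0.63 (adjusted p = 0.0248) and DESeq2 0.63 (adjusted p = 0.128), and the adjusted p ranged over 0.0248 to 0.9999 among all settings and tools. Without AKO replicate 2 the limma value was 0.34. The coinciding brown fat peak (chr7:63986546-63987211) held 614, 578 and 542 normalized reads in flox and 572, 392 and 648 in AKO, with overlap. Its AKO mean was the lower one, and the limma value turned from 0.19 ± 0.21 (SE) with PC1 to -0.13 without it.

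Klf15 is abundant in mature fat cells and turns on Slc2a4, the insulin-sensitive glucose transporter. The brown fat start-site peak (chr6:90462195-90464020) held 1723, 1217 and 1251 normalized reads in flox and 1292, 937 and 1194 in AKO (limma, 0.05 ± 0.19 (SE), adjusted p = 0.959; -0.29 without PC1). In iWAT (chr6:90462347-90463931) it held 441, 369 and 399 normalized reads in flox and 392, 387 and 463 in AKO (limma, 0.04 ± 0.14 (SE), adjusted p = 0.928). The genotypes overlapped at both. The smallest p belonged to chr6:90450299-90451230 in brown fat, 11812 bp upstream, with 763, 548 and 516 normalized reads in flox and 695, 375 and 536 in AKO (limma, 0.29 ± 0.20 (SE), adjusted p = 0.7002; -0.21 without PC1, 0.11 without AKO replicate 1 and 0.49 without flox replicate 3). In iWAT it was chr6:90491201-90492291, 29170 bp downstream, with 64.9, 81.2 and 77.5 normalized reads in flox and 99.1, 103 and 74.8 in AKO (limma, 0.30 ± 0.17 (SE), adjusted p = 0.464). No Klf15 peak of either tissue separated the genotypes.

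**Figure D3:**
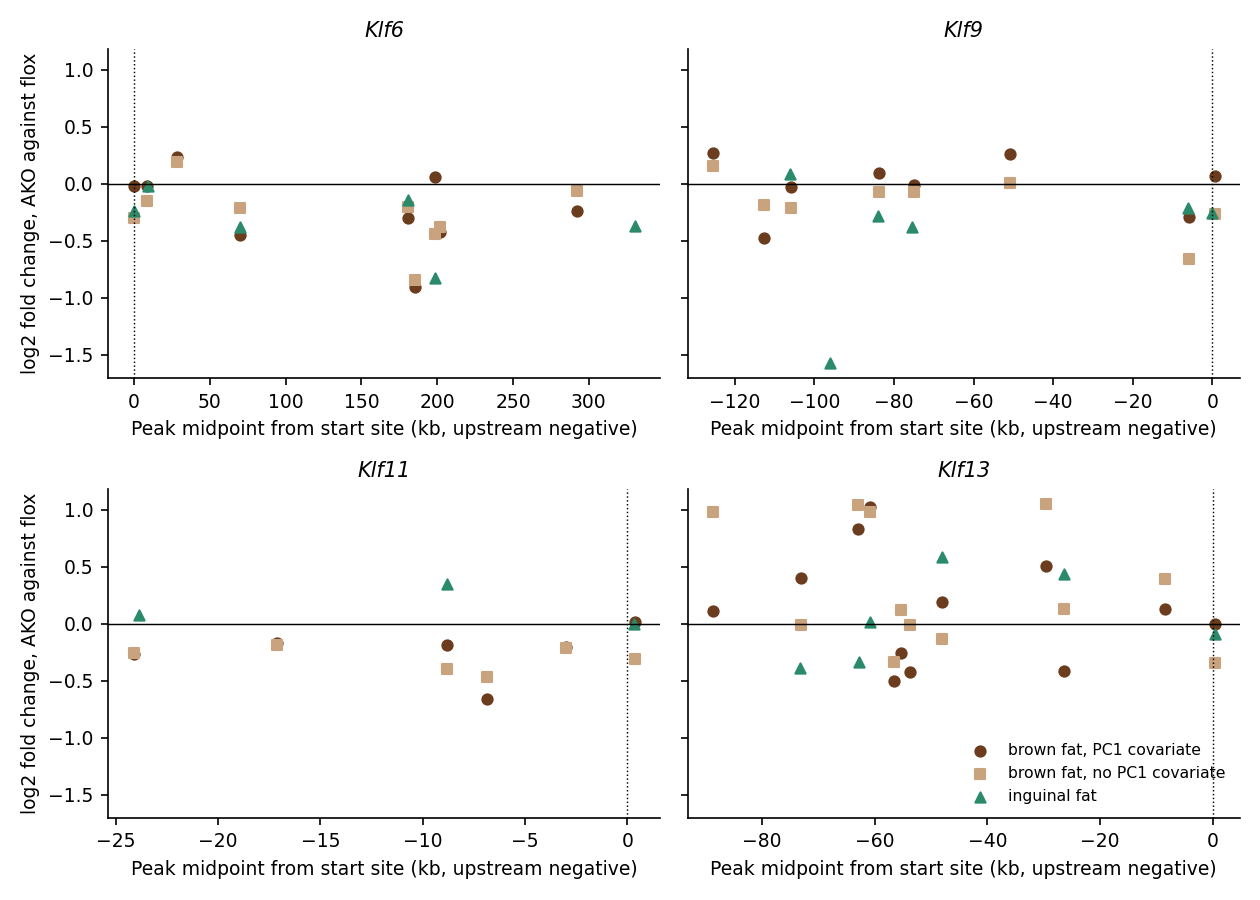
Log2 fold change (AKO against flox, limma) against the distance of the peak's middle from the start site in kb, for Klf6, Klf9, Klf11 and Klf13, in brown fat with and without PC1 and in inguinal fat. The Klf6 points lie mostly below 0, the 2 highest brown fat points of Klf13 with PC1 lie side by side upstream, and the lowest inguinal point is the Klf9 peak at -1.57.

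Klf2 represses Pparg and keeps preadipocytes undifferentiated. Its start-site peak in brown fat (chr8:72318641-72319391) held 795, 732 and 666 normalized reads in flox and 735, 483 and 845 in AKO (limma, 0.25 ± 0.21 (SE), adjusted p = 0.751; -0.12 without PC1). In iWAT (chr8:72318678-72319450) it held 469.8, 485 and 436 normalized reads in flox and 486, 442 and 543 in AKO (limma, 0.08 ± 0.14 (SE), adjusted p = 0.831). The samples overlapped in both tissues. The smallest p was at chr8:72310973-72311200 in brown fat, with 31.4, 33.99 and 23.3 normalized reads in flox and 39.2, 28.97 and 33.6 in AKO (limma, 0.48 ± 0.21 (SE), adjusted p = 0.555; 0.20 without PC1 and 0.30 without flox replicate 3). In iWAT it was at chr8:72365905-72366146, with 45.6, 50.03 and 59.4 normalized reads in flox and 46.1, 35.4 and 43.8 in AKO (limma, -0.30 ± 0.17 (SE), adjusted p = 0.437). One brown fat peak, chr8:72303173-72304081, was lower without overlap, at 334, 318 and 338 normalized reads in flox and 294, 209 and 278 in AKO (limma, -0.17 ± 0.20 (SE); -0.36 without PC1).

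Klf3 recruits CtBP corepressors to Cebpa and delays differentiation. The brown fat start-site peak (chr5:64802595-64804426) held 2031, 1753 and 1647 normalized reads in flox and 1661, 1197 and 1786 in AKO (limma, 0.08 ± 0.18 (SE), adjusted p = 0.9198; -0.24 without PC1). In iWAT (chr5:64802729-64803726) it held 957, 885 and 876 normalized reads in flox and 819.5, 951 and 906 in AKO (limma, -0.02 ± 0.13 (SE), adjusted p = 0.9503). Neither separated the genotypes. The smallest p was at chr5:64820155-64820435 in brown fat, with 54.3, 80.5 and 86.7 normalized reads in flox and 53.6, 71.5 and 72.9 in AKO (limma, -0.47 ± 0.24 (SE), adjusted p = 0.605; -0.15 without PC1). In iWAT it was at chr5:64861631-64861977, with 32.8, 17.8 and 37.01 normalized reads in flox and 12.7, 10.3 and 26.7 in AKO (limma, -0.83 ± 0.39 (SE), adjusted p = 0.369). All 4 iWAT peaks of Klf3 were negative, and 2 of them were lower without overlap: the one in intron 1 (chr5:64811139-64812313) held 218, 221 and 218 normalized reads in flox and 181, 199 and 177 in AKO. Of all iWAT peaks 50.1% were negative and 10.3% lower without overlap.

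Klf7, also an inhibitor of fat cell formation, had no brown fat peak over its principal start site. The nearest (chr1:64121531-64122526, 537 bp upstream) held 926, 864 and 858 normalized reads in flox and 868, 547 and 984 in AKO (limma, 0.17 ± 0.23 (SE), adjusted p = 0.856; -0.18 without PC1). In iWAT a wider peak reached the start site (chr1:64121269-64122502) and held 582, 534 and 539.7 normalized reads in flox and 536, 546 and 573 in AKO, with almost equal means (limma, 0.00 ± 0.12 (SE), adjusted p = 0.999). The smallest p was at chr1:64301655-64301910 in brown fat, with 19.9, 28.8 and 47.9 normalized reads in flox and 29.9, 34.8 and 24.9 in AKO (limma, -0.57 ± 0.27 (SE), adjusted p = 0.582). That value was -0.028 without PC1 and -0.15 without flox replicate 3. In iWAT it was at chr1:64295569-64295850, 174218 bp upstream, with 41.3, 30.02 and 41.3 normalized reads in flox and 24.2, 23.98 and 28.9 in AKO. That peak was lower in every AKO aliquot (limma, -0.52 ± 0.17 (SE), adjusted p = 0.235).

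Klf11 works with PPARγ at genes of brown and beige fat cells. Its brown fat start-site peak (chr12:24650891-24652423) held 1734, 1319.8 and 1198 normalized reads in flox and 1241, 973 and 1199 in AKO (limma, 0.01 ± 0.18 (SE), adjusted p = 0.987; -0.31 without PC1). In iWAT (chr12:24650940-24652271) it held 639, 565 and 596 normalized reads in flox and 565, 581 and 649 in AKO (limma, -0.00 ± 0.13 (SE), adjusted p = 0.991). Both overlapped. Away from the start site all 5 brown fat peaks were negative with and without PC1, where 54.6% and 49.5% of all peaks away from a start site were. The smallest p of these belonged to chr12:24644245-24644594, 6855 bp upstream, at 159, 166 and 145 normalized reads in flox and 101, 147 and 96.9 in AKO, where AKO replicate 2 reached the flox range (limma, -0.66 ± 0.23 (SE), adjusted p = 0.515; -0.47 without PC1 and -1.02 without flox replicate 3).

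A Klf11 region 8799 bp upstream separated the genotypes in opposite directions in the 2 tissues. In brown fat chr12:24642193-24642757 held 503, 443 and 396 normalized reads in flox and 332, 301 and 384 in AKO, with every AKO mouse below every flox mouse (limma, -0.19 ± 0.18 (SE), adjusted p = 0.784; -0.40 without PC1 and -0.047 without AKO replicate 1). In iWAT chr12:24642295-24642654 held 92.7, 100.1 and 89.5 normalized reads in flox and 135, 119 and 107 in AKO, with every AKO aliquot above every flox one (limma, 0.34 ± 0.14 (SE), adjusted p = 0.315). Neither passed the threshold, and the difference between the tissues was not tested. The central window of the brown fat peak (chr12:24642376-24642575, plus strand) is printed because this was the 1 coinciding KLF pair of 52 with opposite separation (1.92%, beside 1.47% of all coinciding peaks), and its capitals mark one CCNCNCCC.
Klf11 brown fat window: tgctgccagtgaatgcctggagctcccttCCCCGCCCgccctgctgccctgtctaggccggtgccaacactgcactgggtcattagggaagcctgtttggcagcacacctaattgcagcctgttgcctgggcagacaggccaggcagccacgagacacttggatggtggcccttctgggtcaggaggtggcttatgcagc

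**Figure D4:**
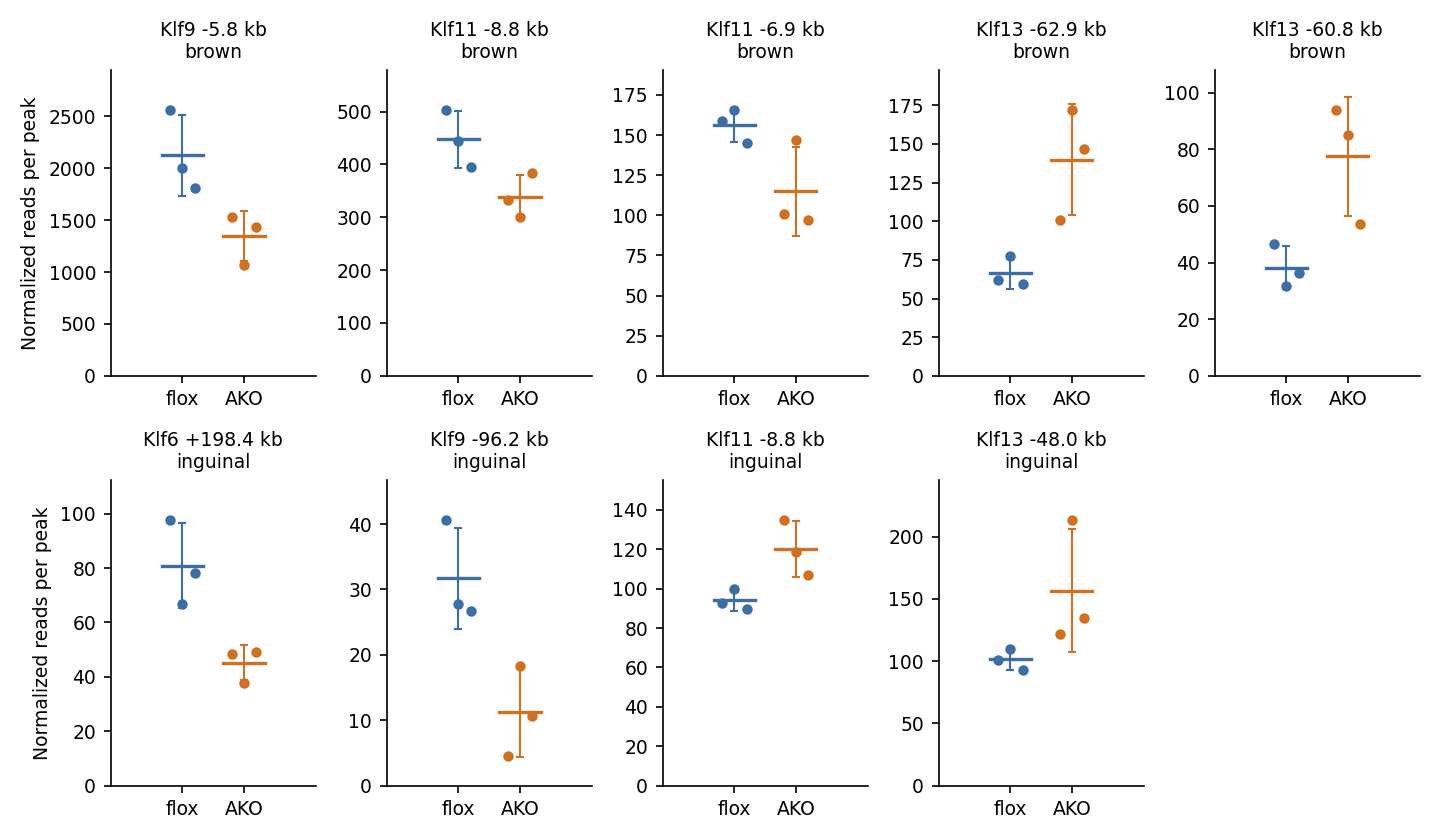
Normalized reads of each sample (linear axes from 0, one scale per panel) at 9 distal KLF peaks, named by gene, distance from the start site and tissue, with the mean and SD of 3 samples per genotype. AKO lies below flox without overlap at Klf9 and at the farther Klf11 peak in brown fat and at Klf6 and Klf9 in inguinal fat, and above it at both Klf13 peaks of brown fat and at Klf11 and Klf13 in inguinal fat.

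Set side by side over the 52 coinciding pairs, the signs in the tissues were mixed. Both log2 fold changes were negative at 12 pairs and positive at 13, the brown fat one alone was negative at 9, and the iWAT one alone at 18. Without PC1 in brown fat the tally was 20 pairs negative and 9 positive in both, 13 negative in brown fat alone and 10 in iWAT alone. Where at least 50% of each peak coincided, 38 pairs remained, of which 9 were negative and 11 positive in both with PC1, and 16 and 6 without it.

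**Figure D5:**
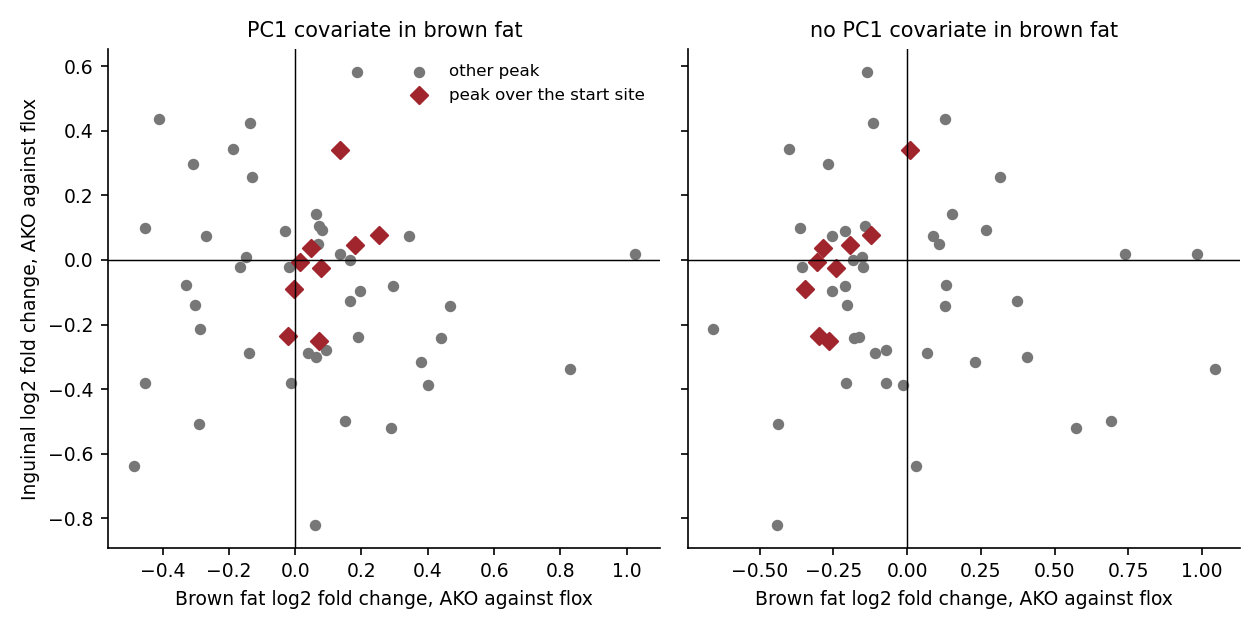
Log2 fold change (AKO against flox, limma) in inguinal fat against that in brown fat for the 52 coinciding KLF peaks, with the PC1 covariate in brown fat (left) and without it (right); diamonds are peaks over a start site. With the covariate 12 pairs lie below 0 and 13 above 0 in both tissues; without it 20 lie below and 9 above, and most diamonds shift to the left.

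The other genes of the KLF and SP families gave no call with limma. The KLF genes Klf1, Klf10, Klf12, Klf14, Klf16 and Klf17 held 20 brown fat peaks and 18 iWAT peaks. At an unadjusted p under 0.05 with limma, 2 of the 20 were lower and 0 higher, against 5.59% and 3.46% of all brown fat peaks, and 0 of the 18 lower and 3 higher, against 7.42% and 7.61% in iWAT. Without PC1 the brown fat counts were 0 and 0. The median log2 fold change was 0.019 in brown fat, -0.023 there without PC1, and 0.14 in iWAT. Klf8 had no peak. Klf10 had the smallest p in brown fat, at 37.6, 45.1 and 85.4 normalized reads in flox and 49.5, 131 and 51.8 in AKO. The limma value was -0.57 with PC1 (adjusted p = 0.522) but 0.40 without it, and the AKO mean was the higher one. Klf17 had it in iWAT, at 17.1, 23.3 and 16.4 in flox and 32.3, 36.5 and 34.2 in AKO (limma, 0.84, adjusted p = 0.151). The 9 SP genes, whose proteins bind the same box, held 34 peaks in brown fat (median -0.016) and 28 in iWAT (median 0.00021). By the same p, 0 of the 34 were lower and 1 higher with PC1, and 2 and 4 without it, where 4.37% and 7.57% of all brown fat peaks were. In iWAT 4 were lower and 0 higher, against the iWAT shares just given. The smallest p values were at Sp7 in brown fat (limma, 0.55, adjusted p = 0.489; 1.14 without PC1) and Sp5 in iWAT (limma, -1.08, adjusted p = 0.224).

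Ctbp1, Ctbp2, Wwp1, Pparg, Cebpa, Cebpb, Slc2a4, Dlk1, Zbtb16 and Hcar2, taken as KLF cofactors and genes tied to KLF proteins in fat, had a negative median over their brown fat peaks. Of their 77 brown fat peaks, 10 were lower and 2 higher at an unadjusted p under 0.05 (limma, median -0.13), where 5.59% and 3.46% of all peaks were. Without PC1 these became 17 and 4, with a median of -0.25, against 4.37% and 7.57% of all. Without overlap 22 were lower and 2 higher, against 8.84% and 8.77% of all peaks. Called by limma were 0, and DESeq2 with PC1 called 1. That one lay at Cebpa (chr7:35138242-35138839), the C/EBP factor of mature fat cells, at 305, 469 and 426 normalized reads in flox and 210.3, 247 and 269 in AKO (DESeq2, -0.92, adjusted p = 0.0459; limma, -0.91, adjusted p = 0.459; -0.71 without PC1). Pparg, the master regulator of fat cell formation, had the smallest p with limma, at 169, 208 and 194 in flox and 115, 83.1 and 83.5 in AKO (limma, -0.97, adjusted p = 0.44; -1.02 without PC1). In iWAT the list held 46 peaks (median 0.0093), of which 3 were lower and 3 higher at that p, against 7.42% and 7.61% of all.

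Markers of other cells were read in the same samples. In brown fat the 70 peaks of 5 brown adipocyte markers (Ucp1, Cidea, Elovl3, Ppargc1a, Dio2) summed to 19244 to 22757 normalized reads in flox and 12864 to 14032 in AKO, without overlap. The 28 peaks of 6 general adipocyte markers summed to 16246 to 17618 in flox and 11581 to 16200.5 in AKO, also without overlap. Of these peaks 7 were lower and 3 higher without overlap (25% and 10.7%, against 8.84% and 8.77% of all peaks). The 87 KLF peaks summed to 24707 to 30089 in flox and 19710.3 to 24829 in AKO, with overlap. The part of the adipocyte signal in the brown fat KLF values was not tested. The 28 peaks of 6 endothelial markers summed to 2448 to 2643 in flox and 2367 to 2799 in AKO. In brown fat 2 of 5 macrophage markers had peaks, which summed to 169 to 276 in flox and 177 to 216 in AKO, and Csf1r, Cd68 and Ptprc had none.

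In iWAT the peaks of vessel and macrophage markers summed lower in AKO. The 12 peaks of 4 of 6 endothelial markers summed to 766 to 855 in flox and 671 to 739.9 in AKO, and Tie1 and Emcn had no peak. The 4 peaks of 3 of 5 macrophage markers summed to 268 to 327 in flox and 175 to 239.8 in AKO, and Cd68 and Mrc1 had none. The genotypes overlapped at neither sum. Of the 12 endothelial peaks 9 were negative. At an unadjusted p under 0.05 (limma) 2 were lower and 1 higher, against 7.42% and 7.61% of all peaks. Without overlap 2 were lower and 0 higher, against 10.3% and 10.6% of all. All 4 macrophage peaks were negative, at a median of 67.8 normalized reads, and 2 of them were lower without overlap. The 21 peaks of the brown adipocyte markers summed to 1258 to 1416 in flox and 1342 to 1472 in AKO. The part of vessels and macrophages in the iWAT values of Klf2, Klf4 and Klf6 was not tested. For the remaining marker lists the median log2 fold changes with limma were -0.11 in brown fat and -0.026 in iWAT for adipocytes (28 and 19 peaks), 0.14 and 0.022 for fibroblasts and progenitors (12 and 15 peaks), -0.096 and 0.14 for smooth muscle and pericytes (15 and 9 peaks) and -0.097 and 0.046 for skeletal muscle (5 and 1 peaks). Without PC1 the brown fat skeletal muscle median was 0.22, and the other medians of these lists kept their sign. The single lymphocyte peak had 0.021 in brown fat (-0.022 without PC1) and 0.37 in iWAT.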

How the data were processed

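Accessibility was profiled by ATAC-seq in whole brown fat (3 mice per genotype) and in pooled inguinal fat (3 aliquots per genotype). The authors mapped 38-bp paired reads to mm10 with BWA 0.7.17-r1188, removed duplicates with Picard 2.8.14 and reads under a mapping quality of 30, called broad peaks per sample with MACS2 2.1.1.20160309, kept peaks found in at least 2 replicates of a genotype, and counted reads with bedtools 2.27.1. Separate transposase reactions of a sample were combined by a step not given in the sources used here. The labels give 50000 nuclei per reaction and the methods 5000. Deposited signal values are those counts divided by a DESeq2 1.20.0 size factor per sample. The deposited log2 fold changes, p-values, and the standard error and test statistic stored as score columns belong to the authors' own comparison and were not used. The brown fat table was recognised by its PC1 covariate. No column of other samples was left aside (0).

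Dividing by the smallest step of each column returned whole reads for 100% of values (tolerance 0.0001). Each tissue was fitted over all its peaks with limma 3.58.1 (lmFit, eBayes) for AKO against flox on log2(normalized reads + 1), with the PC1 score as a covariate in brown fat alone, and Benjamini-Hochberg adjustment over all peaks at a threshold of 0.1. A fold change on this scale understates that of small peaks. Tests are two-sided. DESeq2 1.42.0 and edgeR 4.0.16 (quasi-likelihood) on the recovered reads were alternatives. All 3 tools were run on simulated counts with the same dispersion at every peak and no PC1 covariate. The brown fat fit with PC1 was therefore not tested in this way. 3 samples against 3 allow 10 splits and an exact p no smaller than 0.1, so single peaks were not given permutation tests, and groups are said not to overlap when every sample of 1 genotype lies beyond every sample of the other. The further alternatives were total reads and cyclic loess as normalization, pseudocounts of 0.1 and 10, a mean of at least 50 normalized reads, a threshold of 0.05, the replicate number as a block, the fit without PC1 (brown fat) or with it (iWAT), and each sample left out.

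Members, gene lists and tests were chosen with earlier results of these data known. For each gene and tissue, the peak over or nearest the start site and the peak with the smallest limma p were given in full, as was any peak called by a tool. The Klf2 peak from 72303173, the Klf3 peak from 64811139, the Klf4 peak from 55562160, the Klf13 peak from 63968415 and the Klf11 pair were added after their values were seen. File starts count from 0, since HOMER distances then gave 1 start site for 94.0% of a gene's peaks against 61.2% otherwise. Genes follow GENCODE M21. Promoters come from RefSeq GRCm38.p6, and windows are the central 200 bases of a peak. Tables and figures were made with pandas 2.3.3, numpy 2.4.6 and matplotlib 3.10.9 under Python 3.11.15, and fits under R 4.3.3.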

Additional observations from a re-analysis of the deposited data

Results flagged for a closer look

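One result was picked out by comparing the tissues. At the coinciding Klf11 peaks 8799 bp upstream of the start site, every AKO sample lay below every flox sample in brown fat (log2 fold change -0.19 with limma, adjusted p = 0.784) and above every flox sample in iWAT (0.34 with limma, adjusted p = 0.315). The brown fat value was -0.40 without PC1 and -0.047 without AKO replicate 1. The difference between the tissues was not tested, since their tables were normalized separately. Of the 52 coinciding KLF pairs, 1 separated in opposite directions (1.92%) and 1 in the same direction (1.92%), where 1.47% and 2.25% of all 31936 coinciding pairs did, so the KLF counts are near those shares.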

How the results depend on the processing

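The counts of called KLF peaks stayed at 0 in both tissues and directions under limma with total reads, cyclic loess, pseudocounts of 0.1 and 10, a threshold of 0.05, the PC1 alternatives and each sample left out. These fits also called 0 of all peaks, except 1 lower brown fat peak with a pseudocount of 10, and a stricter threshold cannot raise a count. The unchanged counts are therefore not particular to KLF peaks. The KLF counts changed in these cases. In brown fat DESeq2 without PC1 called 1 lower and 1 higher. In iWAT DESeq2 called 1 lower, edgeR 2 lower and 2 higher, and limma restricted to means of 50 normalized reads or more 1 lower, with fewer peaks tested. That restricted fit called 134 lower and 180 higher of all 25776 peaks tested, where the main fit called 0 and 0. The median log2 fold change of the KLF peaks in iWAT was -0.097 and became 0.64 with a PC1 covariate, a score that by itself separates the genotypes, and 15 of 19 named iWAT peaks changed sign in that fit. The brown fat median of 0.062 became -0.11 without PC1, where 9 of 22 named peaks changed sign, and -0.056 with the replicate block. With 1 sample left out, the median ran from -0.0015 (without flox replicate 2) to 0.10 in brown fat and from -0.13 to -0.080 in iWAT, and the counts of calls from 0 to 0.

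The labels number the replicates 1 to 3 in each genotype. Deviations of same-numbered samples correlated at 0.494, 0.0632 and -0.236 in brown fat and at -0.0387, -0.0497 and -0.0566 in iWAT, so the numbers did not pair the samples. With the replicate block limma called 0 KLF peaks and 0 of all peaks in each tissue and direction. The iWAT median stayed at -0.097 in that fit, and without PC1 the blocked brown fat median was -0.11. Coinciding pairs fell from 52 to 38 when at least 50% of both peaks had to overlap. The depth of the samples, with a median peak of 62 to 98 reads in iWAT and 70.0 to 226 in brown fat, limits what small peaks can show.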
